A study of Mus musculus with 6 samples.

Results

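Sciatic nerves of mice lacking Rnf40 in Schwann cells were compared with control nerves for 10 genes that surround the making of palmitate from cytosolic acetyl-CoA. These genes are Slc25a1, Acly, Me1, Acss2, Acss1, Aacs, Acaca, Acacb, Fasn and Mlycd. They were chosen by symbol for their place in the pathway, with earlier results of these data known. The mitochondrial synthetase Acss1 was taken in to be set against its cytosolic relative Acss2. All 10 were found among the 24015 gene symbols counted. RNA-Seq was performed on whole sciatic nerve at postnatal day 14, when Schwann cells are building myelin, and each library was made from a pool of 3 nerves. The study asked what the E3 ligase subunit Rnf40, which is needed to attach ubiquitin to histone H2B, does in Schwann cells during nerve development. Control mice carried floxed alleles without Cre (Rnf40 fl/fl, 3 libraries). The other group, called Rnf40ΔSC here, carried the same floxed alleles together with a transgene that expresses Cre in developing Schwann cells (Dhh::Cre, Rnf40 fl/fl, 3 libraries). Both groups shared one mixed background, given as 129SvJ/C57Bl/6J in the sample labels and as C3H with C57Bl/6J in the methods. Fibroblasts, perineurial cells, endothelial cells, immune cells and fat cells of the nerve sheath also contribute RNA to such libraries and are not targeted by the transgene.

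Control replicates 1, 2 and 3 held 1317167, 1992622 and 2468765 reads counted on genes, and the Rnf40ΔSC replicates held 2184268, 1459387 and 2186710. A single read therefore stood for 0.405 to 0.759 CPM, the count scaled by library size. Normalized counts are raw counts scaled to a common library size with TMM factors, and their average over all 6 libraries is called the base mean. Rnf40 itself had 127, 123 and 138 normalized counts in control nerves and 87.7, 87.9 and 91.5 in Rnf40ΔSC nerves. The groups did not overlap and lay in the direction of their labels, although the count takes in all exons and all cell types of the nerve. The log2 fold change of Rnf40 was -0.54 (standard error of the fit, SE, 0.14, edgeR quasi-likelihood test with Benjamini-Hochberg adjusted p = 0.00242), and it was -0.27 with an adjusted p of 0.12 when libraries were scaled by total counts (range of adjusted p over the 13 alternatives 0.00235 to 0.12).

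Fatty acid synthesis starts from acetyl-CoA in the cytosol, whereas most acetyl-CoA is made in mitochondria and cannot cross their inner membrane. Citrate carries the acetyl unit out and is split again in the cytosol, and acetate or acetoacetate can be activated there directly. Acetyl-CoA carboxylase then forms malonyl-CoA, which fatty acid synthase uses to extend the chain to palmitate with NADPH as the reductant. Myelin is rich in lipid, and myelinating Schwann cells make much of its fatty acid themselves.

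Most of the genes on the direct route to palmitate were expressed at lower levels in Rnf40ΔSC nerves, whereas the mitochondrial synthetase Acss1, the malic enzyme gene Me1, the carboxylase gene Acacb and the decarboxylase gene Mlycd did not pass the test. A gene was called when its adjusted p was at most 0.05, its log2 fold change at least 0.8 in either direction and its base mean at least 20. In the edgeR quasi-likelihood test with Benjamini-Hochberg adjusted p-values, 6 of the 10 genes were called lower (Slc25a1, Acly, Acss2, Aacs, Acaca and Fasn), beside 4.99% of the 11371 genes tested. None of the 10 was called higher, beside 3.65% of all genes tested, and 6 were lower and 0 higher at an unadjusted p under 0.05 and with DESeq2. All 10 passed the filter on low counts. At an adjusted p of at most 0.05 alone the same 6 were lower and 0 higher, beside 16.2% and 15.4% of all genes tested. The median log2 fold change was -1.19 over the 10 genes and -0.00255 over all genes tested. As the 10 genes were chosen with earlier results known, these shares and medians describe them and were not tested as an enrichment. Among all genes tested, 567 were called lower and 415 higher, and scaling by total counts turned this into 261 lower and 1008 higher because it shifted the median of all genes to 0.267. Under that scaling 5 of the 10 genes were called lower, as Acly then had a log2 fold change of -0.73 and missed the fold limit. In bulk libraries of this kind, fewer cells of a type and less RNA per cell cannot be told apart.

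**Figure D1:**
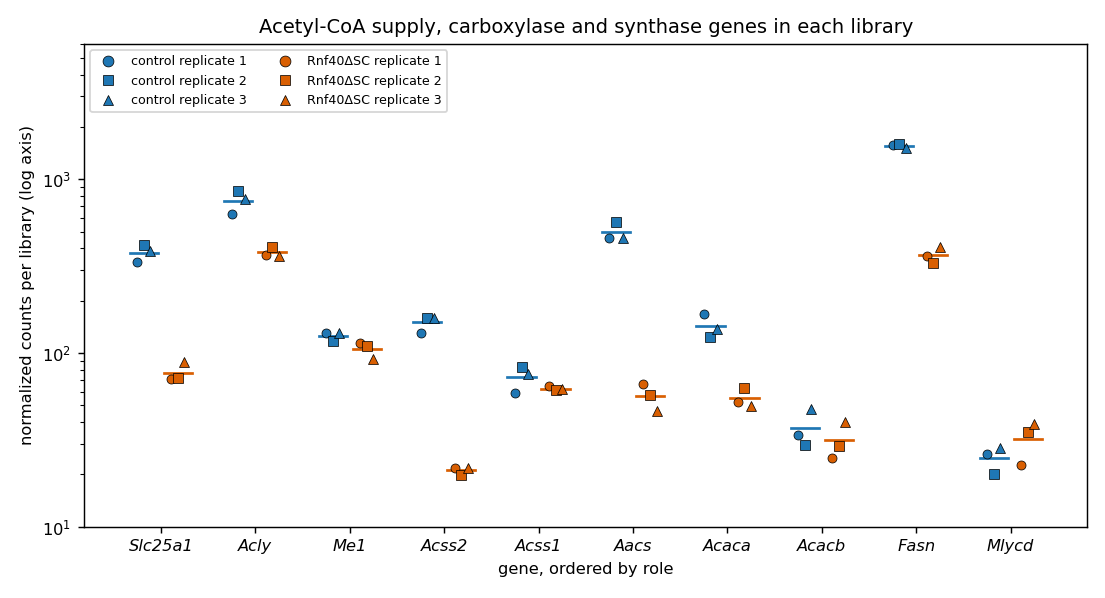
Normalized counts of the 10 genes in each library on a log axis, with points for single libraries and short lines for the group means of 3 libraries. Control libraries lie above all Rnf40ΔSC libraries for 7 genes (as for 21.6% of all genes tested), and the groups overlap for Acss1, Acacb and Mlycd.

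The 10 genes held 0.174%, 0.188% and 0.179% of all counts in control replicates 1, 2 and 3 and 0.0663%, 0.0693% and 0.0713% in the Rnf40ΔSC libraries. Every Rnf40ΔSC library had thus a smaller share than every control library. The 6 genes called lower made up 92.4% to 93.7% of these reads in control and 80.1% to 80.7% in Rnf40ΔSC nerves. Fasn alone supplied 40.2% to 44.3% of them in control and 27.9% to 33.5% in Rnf40ΔSC libraries.

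The citrate route begins with Slc25a1, the carrier that exports citrate across the inner mitochondrial membrane (mm9 chr16:17925304-17928312, minus strand). Slc25a1 had 332, 418 and 384 normalized counts in control and 70.8, 71.5 and 89.2 in Rnf40ΔSC libraries. The highest Rnf40ΔSC library stayed far below the lowest control library. Its log2 fold change was -2.29 (SE 0.12, edgeR quasi-likelihood test with Benjamini-Hochberg adjusted p = 9.58e-18), a 4.88-fold lower level.

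Acly encodes ATP-citrate lyase, which splits the exported citrate into acetyl-CoA and oxaloacetate (mm9 chr11:100337667-100389314, minus strand). It had 628, 860 and 773 normalized counts in control and 365, 408 and 364 in Rnf40ΔSC libraries. The groups did not overlap, but the control libraries were more scattered than the Rnf40ΔSC libraries. The change of -0.999 on the log2 scale (95% interval -1.21 to -0.79, edgeR quasi-likelihood test with Benjamini-Hochberg adjusted p = 5.63e-10) was the smallest among the 6 genes called, and its interval reached past the fold limit.

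Oxaloacetate left by this cleavage can return to mitochondria as pyruvate through cytosolic malic enzyme, the product of Me1, which also yields NADPH (mm9 chr9:86474970-86589947, minus strand). Me1 had 130, 117 and 130 normalized counts in control and 114, 110 and 92.3 in Rnf40ΔSC libraries. Every Rnf40ΔSC library was below every control library, as for 21.6% of all genes tested, but control replicate 2 and Rnf40ΔSC replicate 1 were nearly level. Its log2 fold change of -0.25 did not pass the test (95% interval -0.53 to 0.03, edgeR quasi-likelihood test with Benjamini-Hochberg adjusted p = 0.172) and was 0.017 with total-count scaling.

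Acetate is activated by acetyl-CoA synthetases, of which Acss2 encodes the cytosolic and nuclear enzyme and Acss1 the mitochondrial one. Both genes lie on chromosome 2, Acss1 at mm9 chr2:150443841-150494236 on the minus strand and Acss2 at chr2:155343684-155411460 on the plus strand. The 250 bases before their start sites in RefSeq are shown because the synthetases are set against each other here. The sequences come from RefSeq (GRCm38.p6), a later build than mm9, and run 5′ to 3′ on the strand of the gene, at chr2:150668241-150668490 (minus) for Acss1 and chr2:155517793-155518042 (plus) for Acss2. Capitals mark CCAAT boxes, E-boxes and EGR cores on either strand, and GC boxes are left in lower case.
Acss1: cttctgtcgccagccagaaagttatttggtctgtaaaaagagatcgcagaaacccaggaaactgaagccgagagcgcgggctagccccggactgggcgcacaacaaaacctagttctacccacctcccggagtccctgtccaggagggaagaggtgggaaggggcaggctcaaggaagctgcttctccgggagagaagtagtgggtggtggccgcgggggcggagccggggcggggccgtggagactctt
Acss2: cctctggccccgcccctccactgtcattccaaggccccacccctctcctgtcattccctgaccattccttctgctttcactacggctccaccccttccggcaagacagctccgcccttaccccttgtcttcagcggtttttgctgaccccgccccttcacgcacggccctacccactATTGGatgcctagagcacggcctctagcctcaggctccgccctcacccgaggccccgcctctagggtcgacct
The motifs searched on both strands were a sterol response element (TCACNCCAC, in 1.1% of 32851 RefSeq windows of 250 bases), the E-box (CACGTG, 6.0%), the CCAAT box (CCAAT, 33.8%), the GC box (GGGCGG, 32.7%) and the EGR core (GCGTGGG, 4.3%). The Acss1 window held 2 GC boxes and none of the other motifs. In the Acss2 window there were 4 GC boxes and a CCAAT box in reverse orientation that starts 73 bases before the start site. The letters of the sterol response element occurred in 0 of the 11 windows of the 10 genes, of which Me1 has 2. With these exact letters in only 1.1% of RefSeq windows, their absence from so few windows tells little about such sites. Against the genes as annotated in mm9, the Acss1 window lies wholly inside its gene and ends 260 bases into it. The Acss2 window ends 95 bases into its gene, and that of Fasn ends short of its gene. The windows of Acaca and Acacb and the second one of Me1 end 65766, 18983 and 8741 bases inside their genes. No window at the outer start of Acaca or Acacb was searched. A match describes the letters of a window and was not tested as a binding site.

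Acss2 had 131, 160 and 160 normalized counts in control and 21.7, 19.9 and 21.7 in Rnf40ΔSC libraries, from raw counts of 85, 151 and 191 against 27, 17 and 28. All 3 Rnf40ΔSC libraries were close together and far below control. In the fit Acss2 had a log2 fold change of -2.83 (SE 0.18, edgeR quasi-likelihood test with Benjamini-Hochberg adjusted p = 1.40e-15), a 7.10-fold lower level. Exons of Acss2 overlap those of Ggt7 and Gss on the opposite strand in the GENCODE annotation of mm9, and the strand setting of the counting is not given in the sources used here. Raw counts of Ggt7 were between 2 and 12. Those of Gss were 23, 30 and 38 in control and 32, 15 and 36 in Rnf40ΔSC libraries. In the Rnf40ΔSC libraries they were thus near the counts of Acss2 itself. Acss1 likewise overlaps E130215H24Rik, which had 3 to 12 raw counts.

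Acss1 had 58.6, 82.6 and 76.1 normalized counts in control and 64.4, 60.9 and 62.0 in Rnf40ΔSC libraries. Control replicate 1 was the lowest of all 6 libraries, so the groups overlapped. Its log2 fold change of -0.23 did not pass the test (95% interval -0.58 to 0.12, edgeR quasi-likelihood test with Benjamini-Hochberg adjusted p = 0.327) and was 0.037 with total-count scaling. A fall of the size seen for Acss2 lies outside this interval, whereas a fall of up to 0.58 on the log2 scale does not.

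Set against each other within a library, the synthetase genes changed places in raw counts, which are not scaled to gene length. The ratio of Acss1 to Acss2 raw counts, with 0.5 added to each, was 0.45, 0.518 and 0.478 in control and 2.93, 3.00 and 2.82 in Rnf40ΔSC libraries. Acss2 had the higher count in every control library and Acss1 in every Rnf40ΔSC library. Most of this shift lay in Acss2 (log2 fold change -2.83), as that of Acss1 (-0.23) did not pass the test. Per kilobase of all exons, mean Acss1 was above mean Acss2 in control too (17.6 against 14.8), with overlapping libraries. The mean log2 ratio was -1.06 ± 0.10 in control and 1.54 ± 0.04 in Rnf40ΔSC nerves (SD, n = 3 each), a difference of 2.60 that corresponds to a 6.06-fold higher ratio and does not depend on library scaling. The exact two-sided permutation test gave p = 0.1, the smallest value that 3 against 3 libraries allow, and the Benjamini-Hochberg value over the 3 ratios examined was also 0.1.

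**Figure D2:**
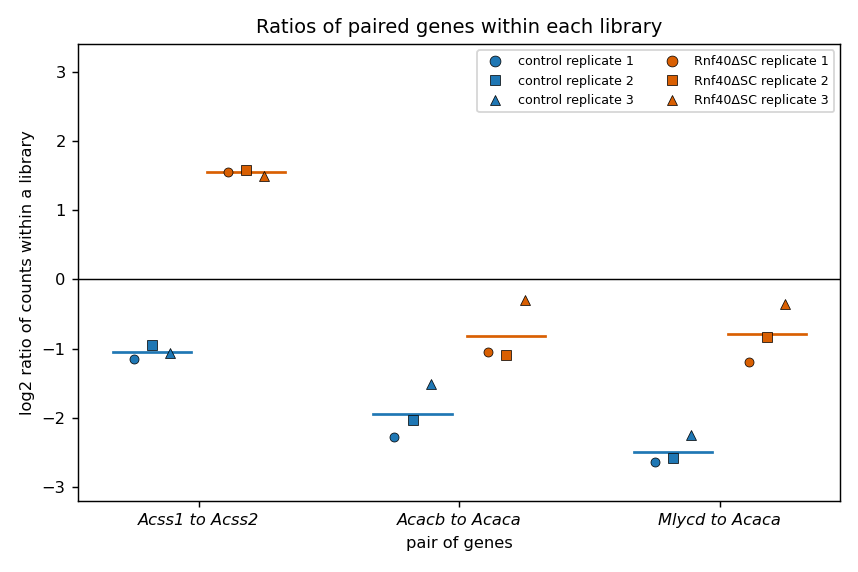
Log2 ratios of raw counts (0.5 added) within each library for 3 pairs of genes, with points for single libraries and lines for group means. Acss1 to Acss2 moves from below 0 in the 3 control libraries to above 0 in the 3 Rnf40ΔSC libraries, and the ratios to Acaca stay below 0 throughout but are higher in each Rnf40ΔSC library.

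Aacs encodes acetoacetyl-CoA synthetase, which activates the ketone body acetoacetate in the cytosol for lipid synthesis (mm9 chr5:125956184-125997782, plus strand). It had 459.9, 567 and 459 normalized counts in control and 66.0, 57.4 and 46.5 in Rnf40ΔSC libraries. No other member had a larger fitted change, and the groups were far apart. For Aacs the fit gave a log2 fold change of -3.13 (SE 0.13, edgeR quasi-likelihood test with Benjamini-Hochberg adjusted p = 5.58e-21), an 8.76-fold lower level. Among all genes tested, Aacs had the 7th smallest p-value.

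Acetyl-CoA carboxylase comes in forms with different places in the cell. The product of Acaca is cytosolic and serves fatty acid synthesis, while that of Acacb sits at the outer mitochondrial membrane, where its malonyl-CoA restrains the entry of fatty acids for oxidation. Acaca (mm9 chr11:83943174-84215153, plus strand) had 168, 123 and 137 normalized counts in control and 52.3, 63.3 and 49.6 in Rnf40ΔSC libraries. The lowest control library was clearly above the highest Rnf40ΔSC library. Its log2 fold change was -1.37 (SE 0.16, edgeR quasi-likelihood test with Benjamini-Hochberg adjusted p = 9.26e-09).

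Acacb (mm9 chr5:114596544-114700770, plus strand) had 34.0, 29.7 and 47.7 normalized counts in control and 24.9, 29.3 and 40.3 in Rnf40ΔSC libraries. The groups overlapped, and replicate 3 was the highest library of either group. The log2 fold change of -0.25 did not pass the test (95% interval -0.75 to 0.24, edgeR quasi-likelihood test with Benjamini-Hochberg adjusted p = 0.467). It was 0.017 with total-count scaling and 0.0077 without control replicate 3. Ucp1, a marker of brown fat named here after its values were seen, had raw counts of 0, 1 and 47 in control and 1, 2 and 22 in Rnf40ΔSC libraries. It was thus highest in the same libraries as Acacb, and its part in the level of Acacb was not tested. The ratio of Acacb to Acaca raw counts was 0.205, 0.245 and 0.35 in control and 0.481, 0.468 and 0.814 in Rnf40ΔSC libraries. These ratios did not overlap between the groups and differed by 1.13 on the log2 scale (exact permutation p = 0.1, the smallest possible, Benjamini-Hochberg value 0.1).

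Fasn encodes fatty acid synthase, the multifunctional enzyme that builds palmitate (mm9 chr11:120667254-120685492, minus strand). Fasn had 1568, 1599 and 1509 normalized counts in control and 363, 330 and 406 in Rnf40ΔSC libraries. It was the member with the most counts in control libraries and had little scatter in either group. The log2 fold change was -2.09 (SE 0.09, edgeR quasi-likelihood test with Benjamini-Hochberg adjusted p = 6.71e-20), a 4.24-fold lower level.

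Mlycd encodes malonyl-CoA decarboxylase, which turns malonyl-CoA back into acetyl-CoA (mm9 chr8:121918778-121935002, plus strand). It had 26.2, 20.1 and 28.4 normalized counts in control and 22.5, 35.1 and 38.8 in Rnf40ΔSC libraries, from raw counts of 17, 19 and 34 against 28, 30 and 50. The groups overlapped, since Rnf40ΔSC replicate 1 was below control replicates 1 and 3. With these few reads the log2 fold change of 0.35 did not pass the test (95% interval -0.18 to 0.89, edgeR quasi-likelihood test with Benjamini-Hochberg adjusted p = 0.333). The ratio of Mlycd to Acaca raw counts was 0.16, 0.167 and 0.21 in control and 0.435, 0.56 and 0.783 in Rnf40ΔSC libraries. It was higher in each Rnf40ΔSC library than in any control library, by 1.70 on the log2 scale (exact permutation p = 0.1, the smallest possible, Benjamini-Hochberg value 0.1).

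**Figure D3:**
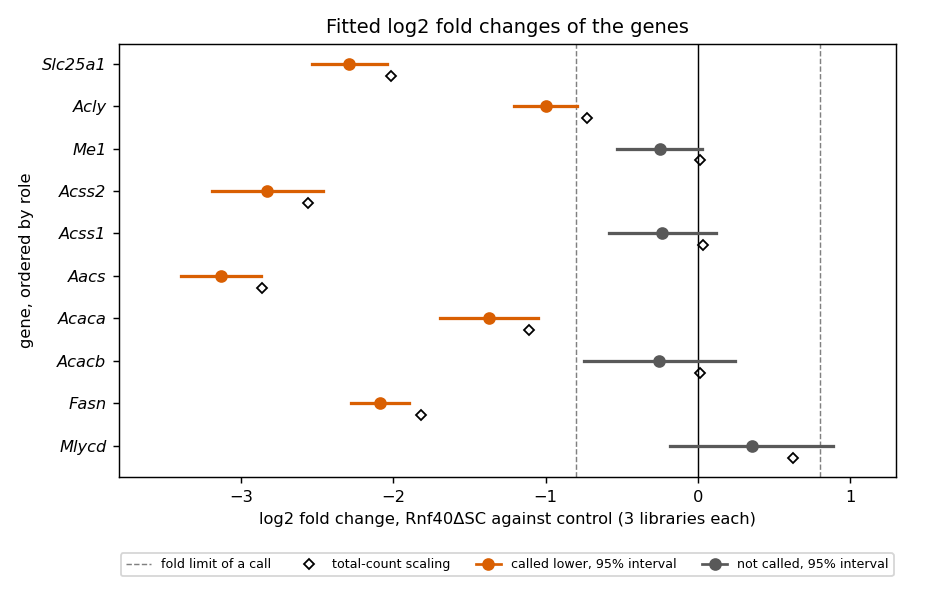
Fitted log2 fold changes of the 10 genes (dots) with 95% intervals (bars), Rnf40ΔSC against control with 3 libraries each, and the values under total-count scaling (diamonds). The 6 genes called lower lie at -0.999 or below, and the values of Me1, Acss1 and Acacb turn slightly positive with total-count scaling.

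Windows before the start sites of Slc25a1, Fasn and Mlycd are shown beside those of the synthetases, as the first alone held an E-box and the others held the most CCAAT boxes among the windows searched. They were picked after the calls were known, and motifs were not tested against calls. They lie at chr16:17928220-17928469 (minus), chr11:120824548-120824797 (minus) and chr8:119394644-119394893 (plus) in GRCm38.p6, with the same capitals as above.
Slc25a1: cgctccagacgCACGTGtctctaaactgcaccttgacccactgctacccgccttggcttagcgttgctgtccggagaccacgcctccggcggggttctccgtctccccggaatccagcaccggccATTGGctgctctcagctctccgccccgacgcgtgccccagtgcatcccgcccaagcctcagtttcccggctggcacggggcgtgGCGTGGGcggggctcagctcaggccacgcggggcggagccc
Fasn: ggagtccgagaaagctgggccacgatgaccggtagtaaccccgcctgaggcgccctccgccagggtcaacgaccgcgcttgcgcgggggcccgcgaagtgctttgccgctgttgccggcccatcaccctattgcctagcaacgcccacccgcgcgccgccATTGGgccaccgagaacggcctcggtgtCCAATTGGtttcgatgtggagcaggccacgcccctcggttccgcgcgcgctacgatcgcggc
Mlycd: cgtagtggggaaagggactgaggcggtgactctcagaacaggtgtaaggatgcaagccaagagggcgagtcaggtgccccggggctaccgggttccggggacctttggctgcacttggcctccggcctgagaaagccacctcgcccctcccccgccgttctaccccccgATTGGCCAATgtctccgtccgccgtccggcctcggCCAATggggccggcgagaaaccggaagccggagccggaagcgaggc
The Slc25a1 window held an E-box that starts 239 bases before the start site, a CCAAT box, 4 GC boxes and an EGR core that overlaps a GC box. An EGR core also occurred, in reverse orientation, in the window of Acacb, which was not called. Fasn and Mlycd had 3 CCAAT boxes each, counted on both strands, of which a forward and a reverse match overlap in Fasn (CCAATTGG) and adjoin in Mlycd (ATTGGCCAAT).

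Levels can be compared between genes per length, here as normalized counts per kilobase of the longest protein-coding transcript in the GENCODE annotation of mm9. In control nerves Slc25a1 had the highest level at 225 ± 26.0 (SD, n = 3), with its lowest library just above the highest of Acly, followed by Acly at 170.3 ± 26.5, Fasn at 163 ± 4.76 and Aacs at 153 ± 19.1. Acly, Fasn and Aacs were neighbours whose libraries overlapped and which were not separated beyond their spread. Acss2 came next at 51.3 ± 5.65, then Me1 at 38.1 ± 2.31, Acss1 at 20.03 ± 3.43, Acaca at 15.0 ± 2.44, Mlycd at 11.7 ± 2.03 and Acacb at 4.22 ± 1.07. In this lower part of the order Acss1 overlapped with Acaca and Acaca with Mlycd.

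In Rnf40ΔSC nerves Acly had the highest level per kilobase, at 85.6 ± 5.63 (SD, n = 3). Slc25a1 (46.0 ± 6.22), Fasn (38.2 ± 3.94) and Me1 (32.1 ± 3.55) followed, and neighbours among these overlapped. Aacs at 17.5 ± 3.01, Acss1 at 17.3 ± 0.488 and Mlycd at 15.1 ± 4.01 overlapped with one another. Acss2 at 7.21 ± 0.356 and Acaca at 5.79 ± 0.759 were lower, and Acacb remained the lowest at 3.59 ± 0.903. Acss2 thus went from the 5th to the 8th place and Me1 from the 6th to the 4th. This order depends on the length used, most of all for Acss2, whose annotated exons together span 10163 bases and whose longest coding transcript has 2931 bases. Per kilobase of all exons Acss2 had 14.8 ± 1.63 in control, below Acss1 at 17.6 ± 3.00 and overlapping with it, and 2.08 ± 0.103 in Rnf40ΔSC nerves, the lowest of the 10 genes. By that length Slc25a1 (173.7 ± 20.02) and Fasn (158 ± 4.64) overlapped in control, with Fasn ahead of Acly (142.8 ± 22.2), and Fasn (37.2 ± 3.83) was ahead of Slc25a1 (35.5 ± 4.79) in Rnf40ΔSC nerves, where the 2 overlapped.

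Likeness of pattern was measured as the root mean square difference of log2 CPM over the 6 libraries, each gene centred on its control mean, among 9242 tested genes whose base mean reached 20. Acss2 was most like Msmo1 (0.104) and Cyp51 (0.134), enzymes of cholesterol synthesis, and Fam57a (0.168). Genes near Fasn in profile included Ncmap (0.0977), which encodes a myelin-associated protein, and Cldn19 (0.113), which encodes a tight junction protein of Schwann cells. Acss1 was most like Pfdn5 (0.0317), Ube2e3 (0.0384) and Clk3 (0.0489), which had log2 fold changes between -0.23 and -0.22 and did not pass the test. Since each profile was centred on control, genes found alike have similar fold changes by the way they were picked.

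The pathway lists around the 10 genes were described by counts and medians, with the background of 4.99% called lower and 3.65% called higher. The step downstream of Fasn moved with it in part. Of 17 tested genes that activate, elongate or desaturate palmitate, 10 were called lower, 0 higher and 7 were not called (median log2 fold change -0.98, 12 lower and 0 higher at unadjusted p under 0.05, 10 and 0 with DESeq2). The elongase gene Elovl6 had a log2 fold change of -2.12 (SE 0.10), Elovl1 of -1.76 (SE 0.10) and the desaturase gene Fads2 of -1.76 (SE 0.11). Values for Acsl3, Fads1 and Scd1 were -1.63, -1.62 and -1.61, and that of Scd2, the most abundant gene of the list, was -1.56. The adjusted p was at most 0.000609 for each of them (edgeR quasi-likelihood test, Benjamini-Hochberg).

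Upstream of Slc25a1, 1 of 18 tested genes from pyruvate to citrate was called lower and 0 higher (median log2 fold change -0.21, edgeR quasi-likelihood test, 8 lower and 5 higher at unadjusted p under 0.05, none with DESeq2). The gene called was the pyruvate dehydrogenase phosphatase Pdp2 (-0.96), which did not pass with DESeq2, with total-count scaling (-0.69) or without control replicate 2 (-0.70) or Rnf40ΔSC replicate 3 (-0.74). Among 13 tested genes of other acetate and ketone body routes, 2 were called lower and 0 higher (median -0.05, 3 lower and 2 higher at unadjusted p under 0.05, 2 and 0 with DESeq2). These were Acat2 (-2.22, standard error 0.18), the cytosolic acetoacetyl-CoA thiolase, and Aspa (-1.67, standard error 0.14), which releases acetate from N-acetylaspartate. The transporter gene Slc16a1, which carries acetate, ketone bodies and lactate among other monocarboxylates, did not pass the test (-0.19). Aacs and Acss2 therefore stood with Acat2 and Aspa among cytosolic enzymes called lower, while the median of this list was near that of all genes.

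NADPH for the synthase can come from several enzymes besides malic enzyme 1. Of 15 tested genes of NADPH supply, in the cytosol or in mitochondria, 5 were called lower and 1 higher (median log2 fold change -0.10). Tkt of the pentose phosphate pathway had -1.18, the NAD kinase gene Nadk2 -1.16 and cytosolic isocitrate dehydrogenase Idh1 -0.94 on the log2 scale. Aldh1l1 (-0.92), a folate enzyme that yields NADPH, and G6pdx (-0.86), the entry enzyme of the pentose phosphate pathway, were also called lower, but Aldh1l1 was lost with DESeq2, without control replicate 2 (-0.81) and without Rnf40ΔSC replicate 1 (-0.72), and G6pdx with the fold-change prior of DESeq2 (-0.796), without control replicate 3 (-0.71) or Rnf40ΔSC replicate 2 (-0.75). With total-count scaling Idh1 (-0.67), Aldh1l1 (-0.65) and G6pdx (-0.59) were under the fold limit. The gene called higher was Me3, a mitochondrial malic enzyme, with raw counts of 5, 9 and 10 in control and 44, 28 and 42 in Rnf40ΔSC libraries. Its log2 fold change of 1.95 (SE 0.32, edgeR quasi-likelihood test with Benjamini-Hochberg adjusted p = 6.91e-06) stood beside the value of Me1, which did not pass. It was no longer called without Rnf40ΔSC replicate 1 (1.92), 2 (1.97) or 3 (1.99), where its base mean fell below the limit.

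Of 13 tested genes that control lipogenic transcription, 1 was called lower and 0 higher (median log2 fold change -0.08, 4 lower and 0 higher at unadjusted p under 0.05, 1 and 0 with DESeq2). This gene was Insig1, which retains the precursors of sterol response element binding proteins in the endoplasmic reticulum, with a log2 fold change of -2.31 (SE 0.15). The protease gene Mbtps1, the most abundant of the list, had 0.01. Srebf1 and Srebf2, which encode those precursors and are named after their values were seen, had log2 fold changes of 0.09 (adjusted p = 0.623) and -0.44 (Benjamini-Hochberg adjusted p = 0.0255, edgeR quasi-likelihood test), neither past the fold limit. Among 11 tested genes that control acetyl-CoA carboxylase, 2 were called lower and 0 higher (median -0.17, 2 lower and 1 higher at unadjusted p under 0.05, 2 and 0 with DESeq2). They were Prkab2 (-1.30), a subunit of the kinase AMPK that inhibits the carboxylases, and Mid1ip1 (-1.24), which promotes their polymerisation.

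The target of malonyl-CoA at the mitochondrion and the mitochondrial pathway gave no calls. None of 4 tested genes of fatty acid entry was called (median log2 fold change -0.06), although 2 were lower and 1 higher at an unadjusted p under 0.05, and DESeq2 called none. Cpt1a, the carnitine palmitoyltransferase that malonyl-CoA inhibits, had a log2 fold change of 0.62 (Benjamini-Hochberg adjusted p = 6.97e-05, edgeR quasi-likelihood test), under the fold limit, and passed it with total-count scaling at 0.90. Of 7 tested genes of mitochondrial fatty acid synthesis none was called (median -0.06), 1 was lower and 0 higher at an unadjusted p under 0.05, and DESeq2 called none. Lias, the most abundant of them, had a log2 fold change of 0.02.

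**Figure D4:**
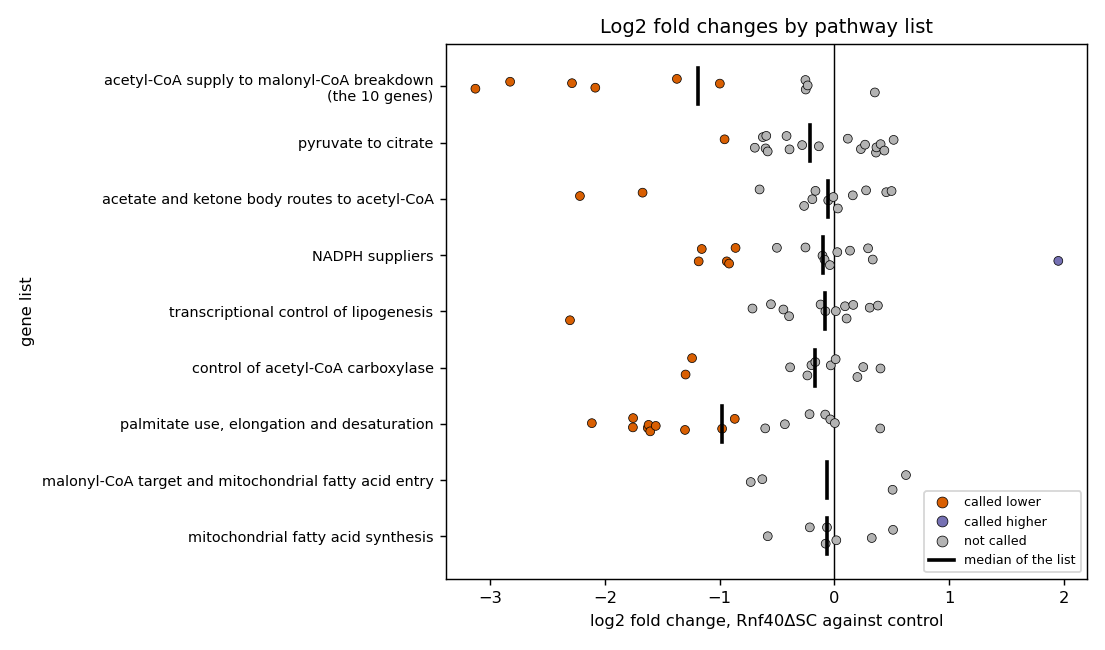
Log2 fold changes of tested genes in the list of 10 genes and in 8 pathway lists, Rnf40ΔSC against control, with a point per gene and a bar at the median of each list. The medians of the 10 genes (-1.19) and of palmitate use (-0.98) lie furthest from 0, and the single gene called higher is Me3 among the NADPH suppliers.

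Markers of the cells in the nerve were counted too, and their part in the results above was not tested. Of 10 Schwann cell markers, 4 were called lower and 1 higher (median log2 fold change -0.84). Sox10 (-0.79), S100b (-0.89) and Erbb3 (-0.60) were detected in every library, so that Schwann cell RNA was present in all of them. S100b missed the fold limit with total-count scaling (-0.62) and without Rnf40ΔSC replicate 3 (-0.78), and Sox10 passed it without control replicate 1 (-0.84) or Rnf40ΔSC replicate 1 (-0.81). The log2 fold changes of Aacs (-3.13), Acss2 (-2.83), Slc25a1 (-2.29) and Acly (-0.999) were further from 0 than those of these 3 markers.

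Adipocytes also make fatty acids, so their markers were counted beside the lipogenic genes. Of 12 tested adipocyte markers, 3 were called lower and 0 higher (median log2 fold change -0.65, 7 lower and 0 higher at unadjusted p under 0.05, 3 and 0 with DESeq2). Their summed normalized counts were 3758, 2899.8 and 4845 in control and 2786, 2593 and 2360.2 in Rnf40ΔSC libraries, led by Fabp4 (-0.43, Benjamini-Hochberg adjusted p = 0.33, edgeR quasi-likelihood test). Adipoq had -0.68, Plin1 -1.31 and Cidec -0.51, and none of these defining markers was at 0 in any library. Adipoq was called lower without control replicate 2 (-0.88). The part of fat cells in the lower levels of Fasn, Acly and Acaca was not tested.

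Skeletal muscle genes split the Rnf40ΔSC libraries. The 15 listed genes summed to 8930, 6805 and 5033 normalized counts in control, but to 193, 504 and 6477 in Rnf40ΔSC replicates 1, 2 and 3. None of the 15 was called, at unadjusted p under 0.05 or with DESeq2 either (median log2 fold change -1.18), and the most abundant, Myh4, had -2.16. Acta1 (-1.18), Ckm (-1.68) and Mylpf (-1.36) followed the same division. These 3 and Myh4 were called lower without Rnf40ΔSC replicate 3, at -4.10, -4.58, -3.92 and -5.23. Without Rnf40ΔSC replicate 3 the same 6 of the 10 genes were called lower, where 697 genes were lower and 469 higher among all genes tested.

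Of 10 tested macrophage markers 1 was called lower and 0 higher (median log2 fold change -0.46, 8 lower and 0 higher at unadjusted p under 0.05, none with DESeq2), with sums of 1003, 911 and 969 in control and 670.4, 664 and 685 in Rnf40ΔSC libraries. Cd68 (-0.81), Csf1r (-0.63, the most abundant) and Emr1 (the older symbol of Adgre1, -0.36) were present in every library, and Cd68 was not called with total-count scaling (-0.54), with DESeq2, with the replicate block (-0.79) or without control replicate 3 (-0.55) or Rnf40ΔSC replicate 2 (-0.72). Of 9 endothelial markers 1 was called lower and 0 higher (median -0.51, 6 lower and 0 higher at unadjusted p under 0.05, 1 and 0 with DESeq2), with sums of 1494, 1324 and 1496 against 969, 971 and 1141. Pecam1 had -0.44, Cdh5, the most abundant, -0.51 and Kdr -0.66, which was called without Rnf40ΔSC replicate 3 (-0.83). Of 8 tested fibroblast and perineurial markers none was called (median -0.33, 7 lower and 0 higher at unadjusted p under 0.05, none with DESeq2), with sums of 54848, 53554 and 58337 against 41120.0, 38598 and 39938. Pdgfra had -0.27, Col1a1 -0.37 and Col1a2, the most abundant, -0.66.

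**Figure D5:**
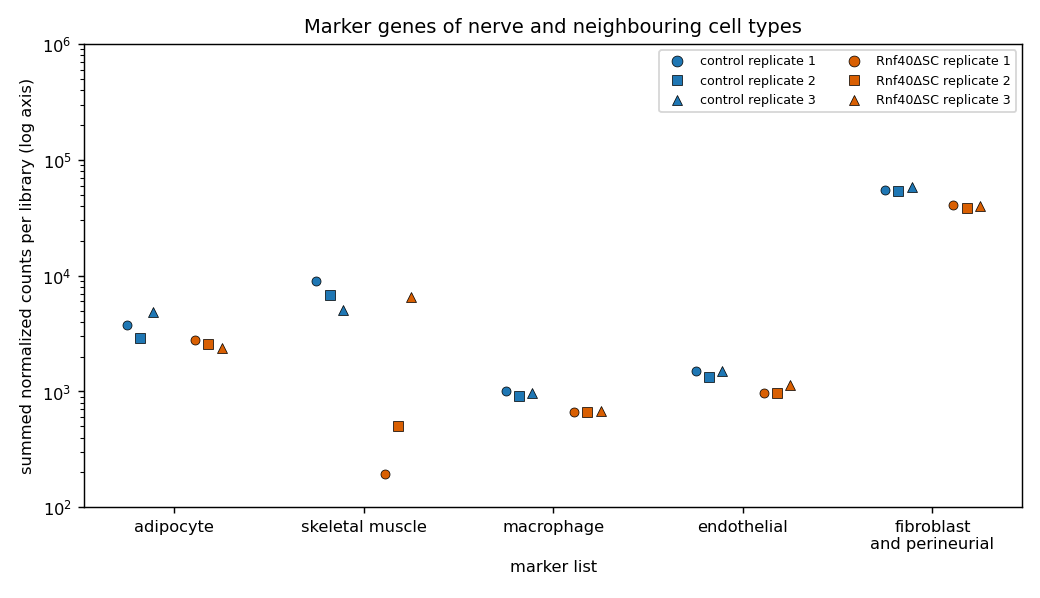
Summed normalized counts of 5 marker lists in each library on a log axis, with a point per library. Adipocyte, macrophage, endothelial and fibroblast sums are lower in each Rnf40ΔSC library than in any control library, and the muscle sum is low in Rnf40ΔSC replicates 1 and 2 only.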

How the data were processed

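RNA-Seq of 6 sciatic nerve libraries was analysed, grouped by the genotype in the sample labels. The authors deposited raw HTSeq counts for each gene, made from unique TopHat alignments to mm9 and not normalized; the gene annotation and the strand setting are not given in the sources used here. As library kit, NEB Next Ultra stands in the labels and a directional kit in the methods, for both groups alike. The submitters' processing notes also list Bowtie2 2.1.0, DESeq2 and the builds mm9 and mm10.

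All genes entered edgeR 4.0.16 in R 4.3.3 (filterByExpr, TMM, robust quasi-likelihood test of genotype without covariates, Benjamini-Hochberg adjustment over 11371 genes). Ratios were tested with exact permutation in scipy 1.17.1. Alternatives were RLE or total-count scaling, DESeq2 1.42.0 with and without its fold-change prior, other filters on low counts (none, or 10 counts in each library as the minimum), a replicate block, other limits of a call, other added counts in the ratios, and each library left out in turn. The scripts were tested on simulated counts. Log2 CPM for likeness of pattern used a prior count of 2. Positions and lengths are from GENCODE vM1 (mm9), and upstream windows from RefSeq (GRCm38.p6), in which all 10 genes were matched, and which were placed in mm9 by exact match.

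The 10 genes and the 8 pathway and 6 marker lists were chosen with earlier results of these data known. Genes named were the 10, Rnf40, from each pathway list up to 6 called genes with the largest absolute log2 fold change and the most abundant tested gene, from each marker list the most abundant gene and the first 3 listed, and the 3 genes most alike to Acss1, Acss2 and Fasn. Older symbols in the files counted as the same gene, such as Emr1 for Adgre1. Ggt7, Gss and E130215H24Rik are named for their position only. Of the genes this rule takes, 2 are not reported here, nor is the summed count of the Schwann cell markers. ChIP-Seq data of the study were not analysed here.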

Additional observations from a re-analysis of the deposited data

How the results depend on the processing

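With total-count scaling 261 genes were called lower and 1008 higher, and log2 fold changes changed sign for Acss1 (0.037), Me1 (0.017), Acacb (0.017), Slc16a1 (0.075), Pfdn5 (0.051), Ube2e3 (0.037) and Clk3 (0.049), since this scaling shifted the median of all genes to 0.267. Adjusted p alone gave 1841 genes lower and 1756 higher, and a limit of 1 on the log2 fold change gave 308 and 235. With 5 added to each count the Acss1 to Acss2 log2 ratio differed by 2.38. Signs also changed when single libraries were left out, for Acacb (-0.49 to 0.0077), Mbtps1 (-0.011 to 0.045) and Lias (-0.076 to 0.087); the cause was not tested. Of 856 log2 fold changes of the 66 named genes under the alternatives, 807 kept direction and call, 27 lost the call, 9 gained it and 13 changed sign. The same 6 of the 10 genes were called lower under each alternative, except Acly with total-count scaling and with the limit of 1, and no other of the 10 was called.

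Replicate numbers did not pair the libraries (correlations of same-numbered libraries across genes -0.0948, -0.015 and -0.0621). With the replicate block 566 genes were called lower and 408 higher, 6 of the 10 genes were called lower and 0 higher, the log2 ratios differed by 2.60, 1.13 and 1.70, and Lias had -0.0016. Leaving out each library in turn gave 548 to 697 genes lower and 371 to 469 higher. Depth limits Mlycd and Acacb most, with raw counts from 17 to 57.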
